A study of Mus musculus with 9 samples.

Results

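Mouse embryonic stem cell (mESC) lines from blastocysts made by in vitro fertilization (IVF) and grown in optimized culture were compared with lines from blastocysts that had developed in the mother. The comparison takes 6 of the 9 lines of the series. The lines FB1, FB2 and FB3 (mESCFB) came from C57BL/6 blastocysts conceived after natural mating and flushed from the uterus. The lines KAA1, KAA2 and KAA3 (mESCKAA) came from C57BL/6 embryos conceived by IVF and grown to the blastocyst stage in KSOM medium with amino acids under 5% O2. Egg donors of both groups were young C57BL/6J females that had been superovulated with gonadotropins, so hormone treatment is shared by the groups. Each line descends from a single blastocyst and was derived on mouse embryonic fibroblasts under the same conditions as the others. The derivation medium held leukemia inhibitory factor (LIF) and the differentiation inhibitors CHIR99021 and PD0325901. To remove the fibroblasts, the lines were plated on gelatin for 3 passages from passage 5. They were collected at the eighth passage. The other 3 lines of the series, from IVF in Whitten's medium under 20% O2, entered the fits only for the estimate of the spread. Transcript levels were measured with 1 Affymetrix Mouse Gene array per line. All 23410 transcript clusters (sets of probes for a gene) to which the platform annotation assigns a gene were used, out of 35556 on the array.

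mESC are the cultured descendants of the epiblast, the cells of the inner cell mass that form the embryo proper. They are held in a self-renewing state by a network of transcription factors around Pou5f1, Sox2 and Nanog, and by LIF and Wnt signals. KSOM with amino acids and low oxygen is the gentler of the usual embryo culture systems, as oviduct fluid is also low in oxygen. The comparison therefore asks what fertilization and culture outside the body leave behind in a stem cell line when the medium is favourable. Female mESC may carry a pair of active X chromosomes, and X-linked transcripts in such lines depend on how many X chromosomes are active.

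The 12 mESC markers were expressed in each of the 6 lines, with log2 levels between 6.11 (Esrrb in KAA3) and 12.1 (Dppa5a in KAA2), against a median of 4.67 over the tested clusters. Their summed level was 101.8 to 105 in mESCFB and 99.97 to 102.5 in mESCKAA. Among the 16 fibroblast markers, listed for the feeder cells, Dcn, Lum, Lox, Postn, Pdgfrb and Prrx1 stayed below the median of the array in all 6 lines. The other 10 did not, with Tagln (8.46 to 9.35), Vim (8.69 to 9.11), Acta2 (7.87 to 8.88) and Fn1 (7.42 to 8.52) the brightest, and 11 of the 16 were higher in mESCKAA. Summed fibroblast markers reached 80.4 to 82.3 in mESCFB and 82.3 to 84.3 in mESCKAA. Whether these levels come from feeder cells was not tested. The level of primitive endoderm markers separated lines within both groups, with sums of 35.1 in FB1 and 37.2 in KAA1 against 29.0 to 31.1 in the other 4 lines. The labels give all lines as female. By the methods of the study, lines were sexed by PCR of genomic DNA for Sry, and only female lines were put on arrays. The Y-linked gene Eif2s3y was nevertheless at 4.78 in FB1 and 3.72 in KAA2, against 1.77 to 2.20 in the other 4 lines. Uty, another Y-linked gene, was at 2.63 in FB1 and 3.10 in KAA2 and at 2.02 to 2.11 elsewhere, whereas Kdm5d lay between 1.96 and 2.04 in all 6 lines. The main counts, and several results in which FB1 or KAA2 stood apart, are therefore also given without them.

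No transcript cluster separated the groups after correction for multiple testing. With limma, 0 of the 23410 clusters had an adjusted p under 0.05 (0% called), and the lowest adjusted p was 0.918. An unadjusted p under 0.05 was obtained for 638 clusters that were higher in mESCKAA (2.73%) and for 488 that were lower (2.08%). With the arrays centred on their medians these counts were 517 and 607, and without FB1 and KAA2 they were 641 and 643, so the balance of directions depended on the scaling and the lines. The groups did not overlap in 1026 clusters that were higher in mESCKAA (4.38%) and in 866 that were lower (3.7%), or in 971 and 1623 after median centring. The rank product, a test on the ranks of the 9 pairwise differences between lines, called 3 clusters higher (0.0128%) and 23 lower (0.0982%) at a percentage of false positives under 0.05. The 3 higher clusters were S100g, Atxn1 and a cluster shared by Sprr2a1, Sprr2a2, Sprr2a3 and Sprr2b.

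The data bound the size of the differences. The median standard error was 0.12 on the log2 scale, and the 95% confidence interval had a median half-width of 0.28. In 22720 clusters (97.1%) this interval lay within -1 and 1. The difference of the means exceeded 1 in 4 clusters and was under -1 in 49. FB2 was the highest of the 6 lines in 47 of these 49. The 4 were the 3 rank product calls and the immediate early gene Fosb. Sprr2 proteins are precursors of the skin's cornified envelope, and their shared cluster was at 7.12 to 7.17 in mESCFB, at 7.49 in KAA1, 7.93 in KAA3 and 10.1 in KAA2. Atxn1, a transcriptional repressor, was at 2.25 to 2.93 in mESCFB and 2.71 in KAA2 and at 4.91 and 4.64 in KAA1 and KAA3 in 1 of its clusters. Without FB2, 5 of the 49 were still under -1, namely Pnma5, Nudt10, Snord37, Mir302d and C330024D21Rik. Without KAA2, 2 of the 4 were still over 1, the Sprr2 cluster differing by 0.57 and Fosb by 0.25. All tested clusters together had a median difference of 0.0067, and the 11705 brighter clusters, those whose mean level reached the median, had one of -0.029, with 39.6% of them above 0. Among these brighter clusters, 145 were higher (1.24%) and 397 lower (3.39%) at an unadjusted p under 0.05.

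The genes that parted the groups most evenly had modest differences. They were picked from all tested clusters for a small p or a wide gap, so separate groups came with the choice. Apobec3 encodes a cytidine deaminase that restricts retroviruses. It was at 7.15, 7.25 and 7.31 in FB1, FB2 and FB3 and at 6.50, 6.40 and 6.30 in KAA1, KAA2 and KAA3. The 3 values of each group lay close together and far from the other group, with a difference of -0.84 (95% interval -1.14 to -0.53, limma unadjusted p = 0.000191, adjusted p = 0.918). It was also called by the rank product, at a percentage of false positives of 0.048. The other Apobec3 cluster was at 3.91 to 4.19 in mESCFB and 4.19 to 4.36 in mESCKAA, a difference of 0.17, so the separation belongs to only 1 of the gene's 2 clusters.

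Several genes with different roles were lower in all mESCKAA lines without passing the adjusted test. Nmi, which binds Myc and STAT proteins, was at 5.43, 5.61 and 5.43 in mESCFB and at 4.96, 5.02 and 4.78 in mESCKAA. Prdx3, the peroxiredoxin that removes hydrogen peroxide in mitochondria, was at 7.97, 8.16 and 8.14 against 7.68, 7.59 and 7.59. Abl1, a tyrosine kinase, was at 6.46, 6.46 and 6.53 against 6.09, 5.97 and 6.07. In these 3 genes, picked in the same way, the spread within groups was a fraction of the distance between them. Their differences were -0.57, -0.47 and -0.44 (standard errors 0.11, 0.098 and 0.094). Castor1, an arginine sensor upstream of mTORC1, differed by -0.42 (standard error 0.089), with mESCFB at 8.30 to 8.41 and mESCKAA at 7.81 to 8.03. Mia, a secreted protein of cartilage and melanoma, differed by -0.91 (standard error 0.18), but FB2, at 6.27, stood apart from FB1 at 5.50 and FB3 at 5.73. For Fryl, 1 of 3 clusters differed by -0.45 and the other 2 by 0.071 and 0.15.

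On the other side, several genes with the smallest p among those higher in mESCKAA were expressed at low levels. Acr, the protease of the sperm acrosome, had the smallest p of all clusters with a single symbol (limma unadjusted p = 0.000148, adjusted p = 0.918). Its level was 3.02, 3.09 and 3.05 in mESCFB and 3.41, 3.50 and 3.56 in mESCKAA, below the median of the array in each line. Pla2g2d, a secreted phospholipase, was at 3.03 to 3.14 against 3.50 to 3.83, and Akap5, a scaffold for protein kinase A, at 4.30 to 4.39 against 4.76 to 4.95. Man1c1, a mannosidase of the Golgi, was at 3.83 to 4.23 against 4.54 to 4.74. All these groups were apart, with values near or below the median of the array. Rspo1, a secreted amplifier of Wnt signaling, was above the median of the array, at 4.81, 4.97 and 5.08 against 5.31, 5.51 and 5.60 (difference 0.52, standard error 0.10). Equal values in 2 or more of the 6 lines, which the summary of few probes can give, occurred in 60.1% of the clusters below the median level.

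**Figure D1:**
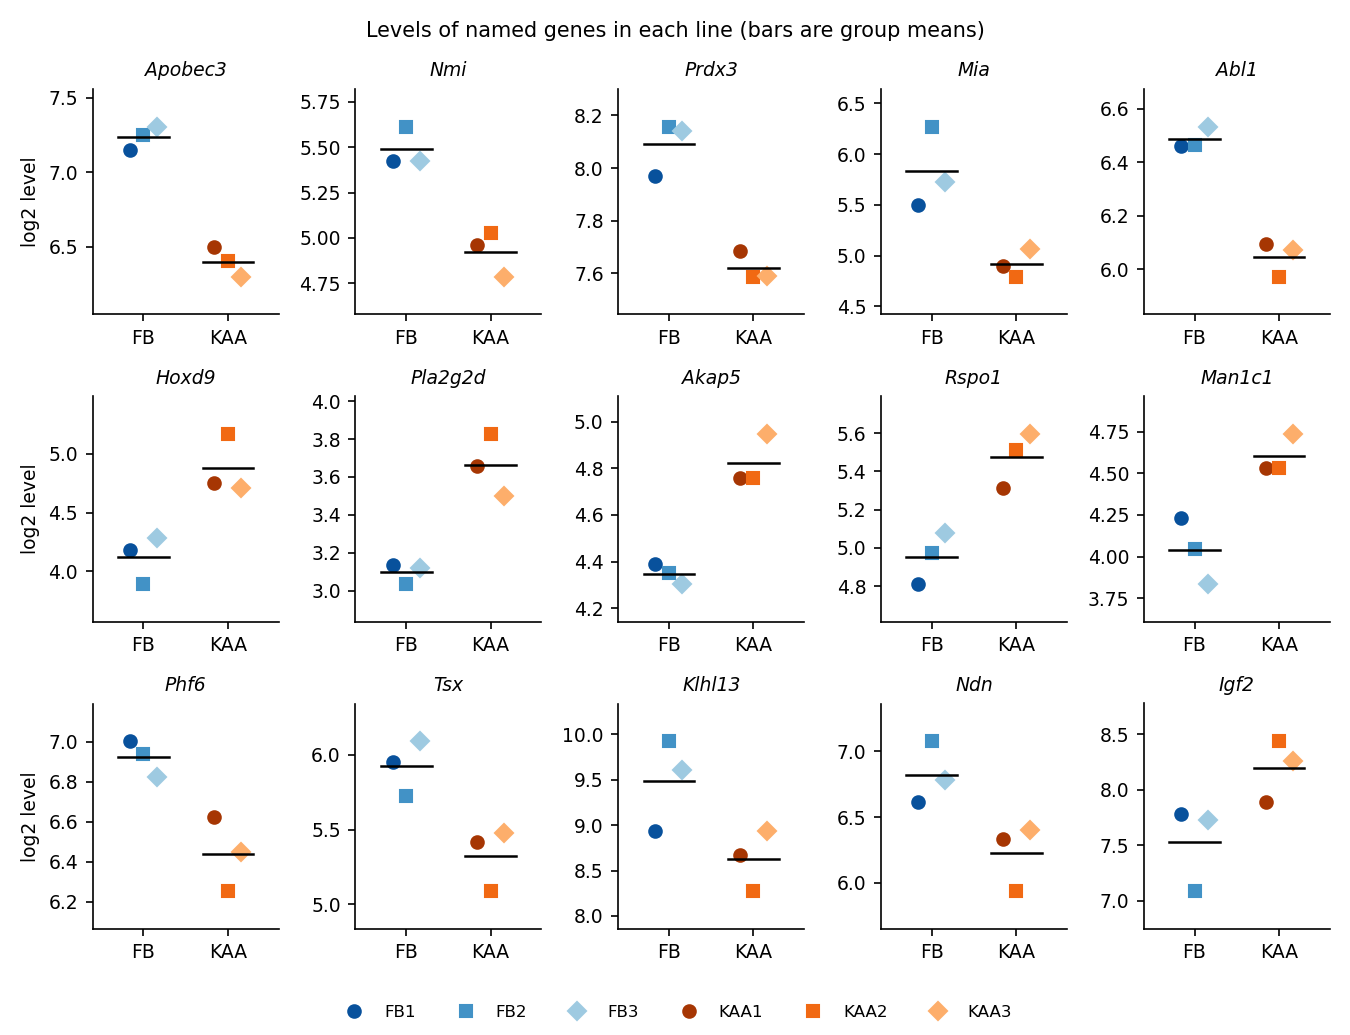
Log2 level of 15 named genes in each line, with mESCFB (FB) on the left and mESCKAA (KAA) on the right of each panel. Each point is a line, a bar gives the group mean, and the vertical axes differ between panels and do not start at 0; Apobec3 has no mESCFB line under 7.15 and no mESCKAA line above 6.50.

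The Hox genes, which give cells their position along the body axis, are silent or nearly silent in mESC. Hoxd9 was at 4.18, 3.89 and 4.28 in mESCFB and at 4.75, 5.17 and 4.71 in mESCKAA. Its groups had the widest gap of all single-symbol clusters that were higher in mESCKAA (difference 0.76, standard error 0.15, limma unadjusted p = 0.000903, adjusted p = 0.918). Of the 37 measured Hox genes, a family taken up after its values were seen, 27 were higher in mESCKAA, and the median difference was 0.12. An unadjusted p under 0.05 was reached by 4 of them, Hoxd9, Hoxd10 (difference 0.31), Hoxc9 (0.30) and Hoxb2 (0.37), all higher. Of these genes 34 lay below the median level of the array, where 65.1% of all clusters were higher in mESCKAA, with a median of 0.047, and 4.21% were higher at an unadjusted p under 0.05. Without KAA2, 23 of the 37 were higher (median 0.063), and without FB1 and KAA2 19 were (median 0.024). Hoxaas2, an antisense transcript of the Hoxa cluster, was at 2.73 to 2.76 against 3.06 to 3.19. By line, the median level of the Hox genes was 3.54, 3.55 and 3.57 in mESCFB and 3.55, 3.69 and 3.52 in mESCKAA, so that of these medians only that of KAA2 stood above all mESCFB lines. None of the Hox genes exceeded 5.42 in any of the 6 lines.

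The medians of whole chromosomes deviated in some lines. For each line the deviation of the brighter clusters from their mean over the 9 lines was taken, relative to the autosomes. On chromosome 6, with 498 such clusters, the median was 0.21 in FB1 and 0.16 in KAA1. In FB2, FB3, KAA2 and KAA3 it was -0.070, -0.064, -0.00026 and -0.020. On the other autosomes no median of any of the 6 lines lay further from 0 than -0.052, in KAA2 on chromosome 16. The higher level of chromosome 6 was thus shared by 1 line of each group. FB1 and KAA1 both lay above the other 4 lines in 285 of the 498 clusters (57.2%), against 1545 of 10328 (14.96%) on the other autosomes.

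**Figure D2:**
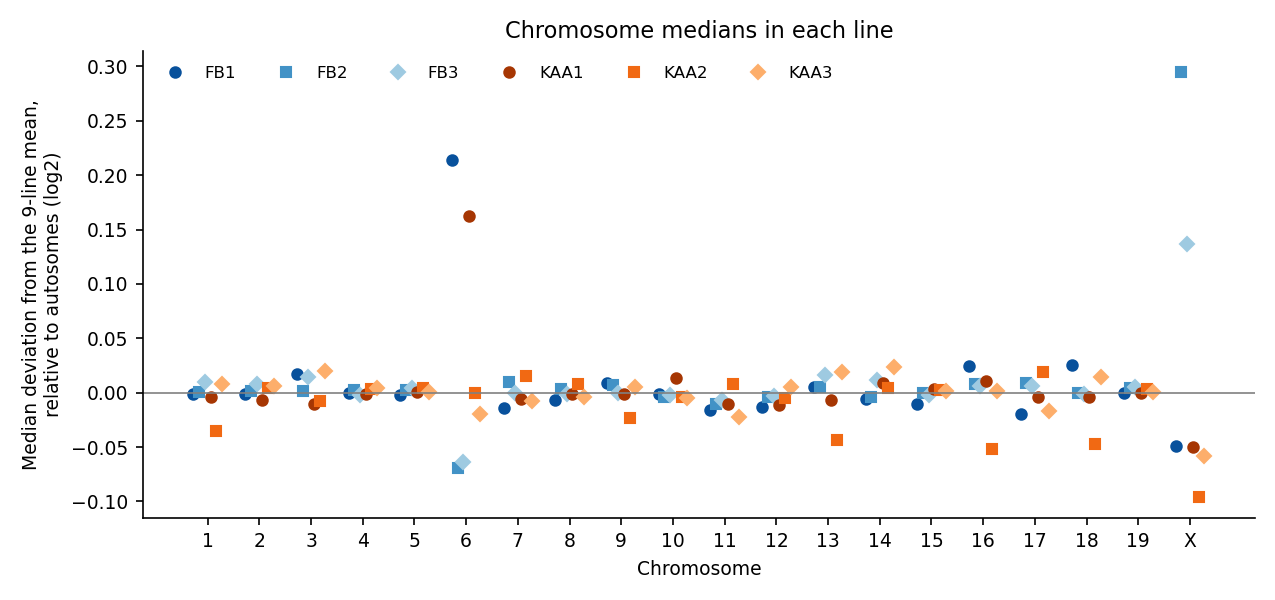
Median deviation of the clusters at or above the median level from their 9-line mean, relative to autosomes (log2, vertical axis), for each chromosome (horizontal axis) and each of the 6 lines (points). FB1 (0.21) and KAA1 (0.16) stand apart on chromosome 6, and FB2 (0.29) and FB3 (0.14) on the X.

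The deviation ran along all of chromosome 6. When the single-symbol clusters were put in 10 runs of neighbouring genes, FB1 was at 0.14 to 0.28 and KAA1 at 0.088 to 0.20 in every run, and the highest value of any other line was 0.024. Some genes of the chromosome, chosen after their values were seen, differed by more. The hexokinase gene Hk2 was at 7.58 in FB1 and 7.51 in KAA1 against 6.36 to 6.64 in the other 4 lines. Mthfd2, a mitochondrial enzyme of folate metabolism, was at 8.26 and 8.04 against 7.16 to 7.51. Pdia4, a disulfide isomerase of the endoplasmic reticulum, was at 9.08 and 9.02 against 8.05 to 8.17. These genes were high in the same pair of lines, 1 of each group. Their distances from the other lines exceeded the chromosome medians of 0.21 in FB1 and 0.16 in KAA1, so they do not typify the chromosome. Nanog also lies on chromosome 6 and went the other way, with 9.02 in FB1 and 8.52 in KAA1 against 9.32 to 10.1 elsewhere. Because 1 line of each group was high, the chromosome 6 clusters differed between the groups by a median of 0.031 relative to autosomes. This value was 0.13 without FB1, and it turned to -0.029 without KAA1, -0.020 without FB3 and -0.0099 without FB2. How the number of copies of the chromosome bears on this was not tested.

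**Figure D3:**
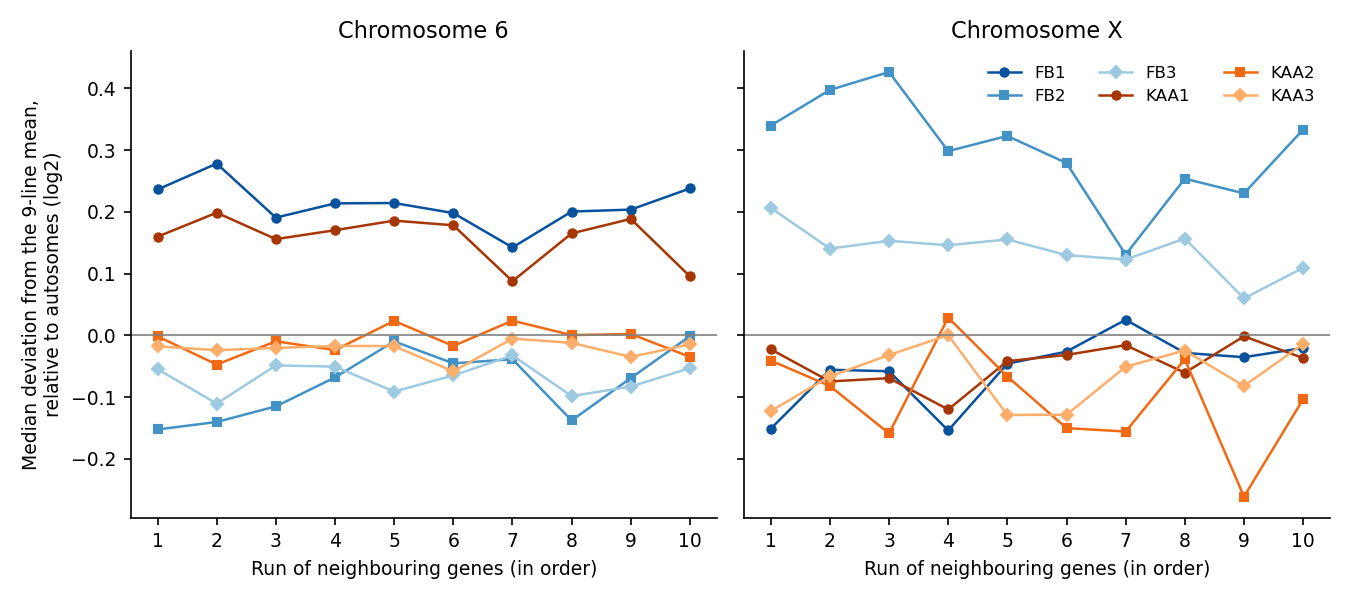
Median deviation from the 9-line mean relative to autosomes (log2) in 10 runs of neighbouring genes along chromosome 6 (left) and the X (right), in gene order, for each line. FB1 and KAA1 lie above the other lines in all runs of chromosome 6, and FB2 and FB3 in all runs of the X.

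X-linked transcripts were lower in mESCKAA, and FB2 and FB3 were the high lines. Over the 890 X-linked clusters, the difference of mESCKAA from mESCFB was lower than that of autosomal clusters by a median of -0.071, and over the 373 at or above the median level by -0.20. Of these 373, 329 (88.2%) were lower in mESCKAA, 87 of them at an unadjusted p under 0.05 (23.3%, against 3.39% of all brighter clusters). Single lines set this count, which was 27 without FB2, 52 without FB3, 44 without KAA2 and 146 without FB1. By line, the deviation was 0.29 in FB2 and 0.14 in FB3. FB1, at -0.049, lay beside KAA1 at -0.050 and KAA3 at -0.058, and KAA2 was lowest at -0.096. FB2 and FB3 were both above the other 4 lines in 197 of the 373 clusters (52.8%), against 803 of 10826 on the autosomes (7.42%).

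The X-linked difference also ran along the chromosome, with FB2 at 0.13 to 0.43 and FB3 at 0.060 to 0.21 in the 10 runs, while the highest value of the other 4 lines was 0.029. Without FB2 the difference relative to autosomes was -0.11, without FB3 -0.20 and without FB1 -0.30. Without FB1 and KAA2, the lines in which Eif2s3y was highest, it was -0.29. Xist, the RNA that coats an inactive X, was at 2.53, 3.95 and 3.13 in mESCFB and at 2.97, 2.57 and 2.97 in mESCKAA, all below the median of the array. The number of X chromosomes per cell was not measured, and culture of the embryo and X dosage of the line cannot be told apart in these 6 lines.

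In a list of 27 X-linked regulators and housekeeping genes, all 23 measured members were lower in mESCKAA, with a median difference of -0.27, and 7 had an unadjusted p under 0.05. These shares are close to those of the 373 brighter X-linked clusters. Of those clusters 88.2% were lower, with a median of -0.23, and 23.3% were lower at an unadjusted p under 0.05. The list is therefore described as part of the chromosome. Klhl13, an adaptor of a ubiquitin ligase, was at 8.93, 9.93 and 9.61 in mESCFB and at 8.68, 8.27 and 8.93 in mESCKAA. As for the chromosome, FB2 and FB3 were high and FB1 was level with KAA3. The histone demethylase genes Kdm6a (difference -0.40) and Kdm5c (-0.37), the translation factor gene Eif2s3x (-0.33) and Nono (-0.25), which encodes a nuclear RNA-binding protein, were also among the 7, with Pdha1, a subunit of pyruvate dehydrogenase. Phf6, a chromatin-binding protein, had another order of lines. It was at 7.00, 6.94 and 6.82 in mESCFB and at 6.62, 6.25 and 6.45 in mESCKAA, with FB1 the highest of all lines (difference -0.48, standard error 0.10). Tsx, a gene of the X inactivation centre, was likewise at 5.95, 5.73 and 6.09 against 5.42, 5.09 and 5.48, so the groups did not overlap and FB2 was the lowest of the mESCFB lines.

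Other X-linked genes with small p were Haus7, a subunit of the augmin complex of the spindle (difference -0.45), Fam50a (-0.45) and Ocrl, a phosphatase of inositol lipids (-0.51), each without overlap of the groups. Foxp3, known as the master regulator of regulatory T cells, was higher, but at 3.85 to 3.89 against 4.12 to 4.27 it lay below the median of the array. Gabre, Ssxb3, Mir463 and Gm648, the other X-linked clusters higher in mESCKAA with the smallest p, did not exceed 2.86 in any line. Among the brighter X-linked clusters, limma gave 0 that were higher at an unadjusted p under 0.05. Nudt10, a phosphatase of the Nudix family, was at 4.82 to 4.91 in mESCFB, 4.27 in KAA1 and 4.55 in KAA3, and at 1.72 in KAA2. Its difference of -1.34 was -0.44 without KAA2.

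Several clusters among the first of the rank product were X-linked transcripts with FB2 on top. Pnma5, a gene of the paraneoplastic antigen family, was at 4.58 in FB1, 6.66 in FB2 and 6.01 in FB3 and at 3.53, 3.98 and 3.73 in mESCKAA. FB1 was closer to the mESCKAA lines than to FB2, and the groups did not overlap (difference -2.01, standard error 0.57). The 8 clusters shared by genes of the Xlr3, Xlr4 and Xlr5 families, X-linked genes of germ cells, had FB2 highest in all 8. Their median level was 2.69, 6.57 and 4.62 in FB1, FB2 and FB3 and 3.29, 3.48 and 2.87 in mESCKAA. FB1 was here below all mESCKAA lines. As the members are near-identical, these clusters cannot be assigned to single genes.

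Genes of the 2-cell-like state, a rare and transient condition of mESC that resembles the early embryo, had the lowest list median. Of 13 measured, 10 were lower in mESCKAA, with a median difference of -0.51. FB2 deviated by 0.99 from the 9-line mean and the other lines by -0.43 to -0.13. Gm5662 was at 5.95 in FB2 and at 1.49 to 2.24 in the other 5 lines. AF067061 was at 7.55 in FB2 and at 3.43 to 4.28 elsewhere, and Tcstv3 at 5.01 and at 2.08 to 2.54. The 3 clusters shared by Zscan4 genes, which are switched on in this state, had medians of 7.61 in FB2, 4.91 in FB3 and 3.39 to 4.26 in the other 4. The low median of the list was thus a property of FB2, and without that line it was 0.097.

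Germline genes that DNA methylation keeps silent gave a less uneven count. Of 30 measured, 18 were lower, with a median difference of -0.11. At an unadjusted p under 0.05, 2.08% of all tested clusters were lower, and 1 of these 30 genes was. D1Pas1, an RNA helicase of the testis, was that gene, at 5.06, 5.03 and 5.31 against 4.64, 4.36 and 4.68 (difference -0.57, standard error 0.17). Hormad1, which encodes a protein of meiotic chromosome axes, was at 4.71, 6.05 and 4.50 against 3.65, 3.75 and 3.77 in 1 cluster, while in its other cluster mESCFB at 5.28 to 6.45 enclosed mESCKAA at 5.36 to 5.63. Pramel13, of the PRAME family, was at 7.55 to 8.21 against 6.89 to 7.04. Among other leading clusters of the rank product, Fetub, fetuin-B, was at 6.27, 7.31 and 7.27 against 5.25, 6.07 and 6.04. Zfp229, a zinc finger gene, was at 3.60, 5.36 and 4.45 against 3.06 to 3.30. In the first FB1 stood near the mESCKAA values, and in the second FB2 was far above the rest. Snord37, a small nucleolar RNA, was at 3.60 to 4.12 against 2.31, 2.01 and 3.34.

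**Figure D4:**
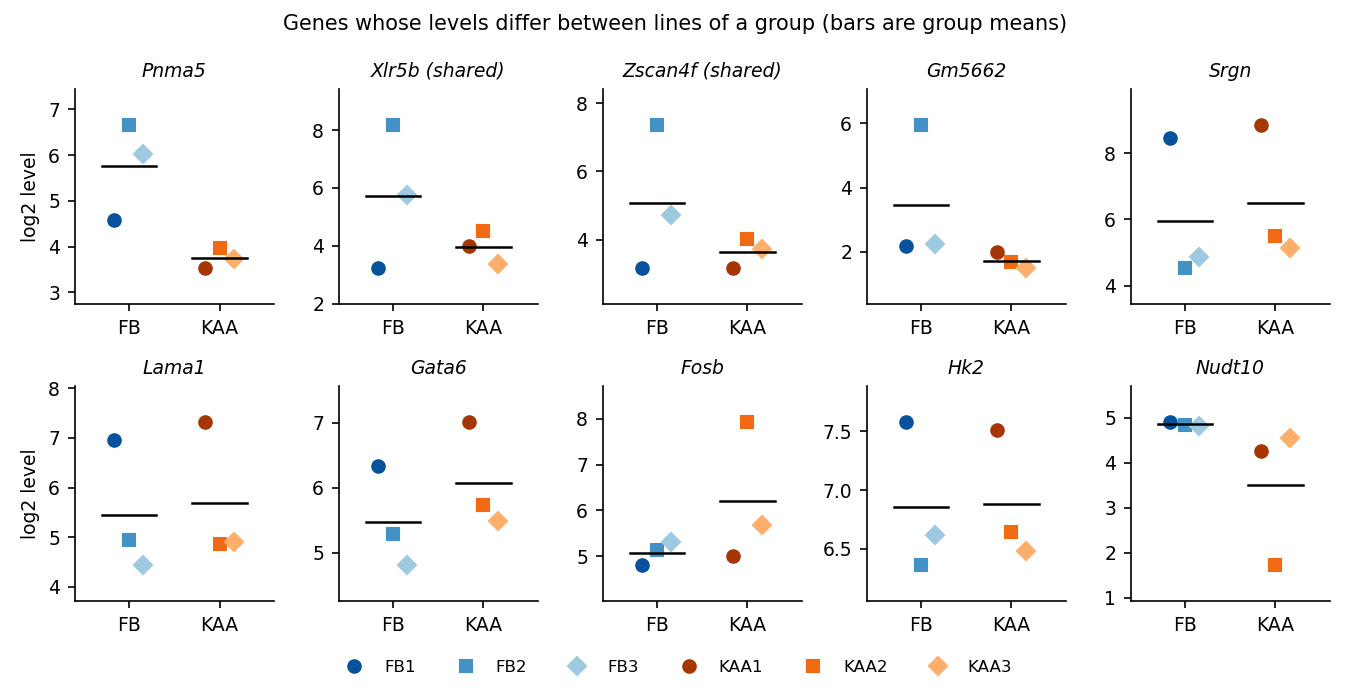
Log2 level in each line of 10 genes whose lines differed within a group (left mESCFB, right mESCKAA, a point per line, a bar at the group mean; vertical axes differ and do not start at 0). The panels marked as shared show a cluster common to Xlr5b, Xlr5a and Xlr5c and one common to Zscan4 genes; FB2 is highest in the first 4 panels, and Srgn, Lama1, Gata6 and Hk2 are high in FB1 and KAA1.

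The naive pluripotency network was slightly lower in mESCKAA. Of 28 measured members 26 were lower, with a median difference of -0.17, against -0.029 for all brighter clusters, and 0 had an unadjusted p under 0.05. Pou5f1, the central factor of the network, was at 10.43, 10.34 and 10.31 in mESCFB and at 10.30, 10.10 and 10.18 in mESCKAA, a difference of -0.17 (standard error 0.077). Sox2, its partner, was at 8.72 to 8.98 against 8.71 to 8.87. Nanog was at 9.02 to 10.1 against 8.52 to 9.72, with overlapping groups. The list's median deviation was 0.18 in FB2 and 0.014 to 0.064 in FB1 and FB3, against -0.13 to 0.025 in mESCKAA, so KAA1 lay within the range of the mESCFB lines. Without FB2 the median difference was still negative, at -0.11. Among genes associated with pluripotency, 2 of 21 had an unadjusted p under 0.05, both lower, where 3.39% of all brighter clusters were lower at that level. The 2 were Fbxo15 (-0.62) and the X-linked Eras (-0.58), a Ras-like gene of mESC, and FB2 was the highest line for both.

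A set of microRNA genes known from pluripotent cells, taken up after its values were seen, also lay lower. The Mir302 and Mir367 genes are processed from a single primary transcript, and their mature products act on regulators of the cell cycle and of differentiation. Mature sequences from RefSeq on GRCm38.p6 are shown for the 4 of the 5 genes for which one was at hand, with the seed (bases 2 to 8) in capitals, because the seed sets which transcripts a microRNA recognizes. The mature sequences lie on chromosome 3, plus strand, at chr3:127545275-127545297 (miR-302b-3p), chr3:127545406-127545427 (miR-302c-3p), chr3:127545665-127545687 (miR-302d-3p) and chr3:127545779-127545800 (miR-367-3p).
miR-302b-3p: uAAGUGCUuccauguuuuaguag
miR-302d-3p: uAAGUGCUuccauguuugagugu
miR-302c-3p: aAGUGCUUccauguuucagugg
miR-367-3p: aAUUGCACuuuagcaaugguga

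The first pair shares the seed AAGUGCU, miR-302c-3p has it shifted by 1 base as AGUGCUU, and miR-367-3p has the unrelated seed AUUGCAC. All 5 genes were lower in mESCKAA, with a median difference of -0.67, whereas the 361 microRNA genes of the array had a median of 0.042. Mir302c was at 3.63, 3.83 and 3.60 in mESCFB and at 2.89, 3.19 and 2.97 in mESCKAA, and its groups did not overlap (difference -0.67, standard error 0.19). Mir302d was at 2.28, 3.42 and 4.00 against 1.78, 1.98 and 2.63, a difference of -1.11 with overlap. Mir302b was at 3.80, 2.92 and 3.26 against 2.74, 2.75 and 2.65. Unlike most large differences, that of Mir302b had FB1 as its highest line. Mir302a (-0.68) overlapped between the groups, and for Mir367 (-0.64) FB1 and KAA3 had the same level. All 5 stayed at or under 4.00 in every line, below the median of the array, and as parts of a single transcript they are not independent of each other. The array probes the precursor, and mature microRNA was not measured.

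Signaling lists showed small and uneven differences. Of 15 Wnt and beta-catenin targets 11 were higher in mESCKAA, with a median of 0.18. Only Lgr5, a receptor for R-spondins such as Rspo1, had an unadjusted p under 0.05 (3.15, 3.09 and 2.94 against 3.20, 3.28 and 3.30). At that level 2.73% of all tested clusters were higher. Axin2, a feedback inhibitor of the pathway, was at 5.18, 5.33 and 5.71 against 5.44, 6.25 and 5.89 (difference 0.45, standard error 0.21), and Dkk1, a secreted inhibitor, differed by 0.34. KAA2 and KAA3 carried the higher medians (0.14 and 0.11), while KAA1, at -0.050, lay with the mESCFB lines. Without FB1 and KAA2 the median was -0.039. Of 18 immediate early genes, which respond within minutes to growth factors and to stress, 16 were higher, with a median of 0.22 and 0 at an unadjusted p under 0.05. Fosb was at 7.94 in KAA2 and at 4.80 to 5.67 in the other 5 lines, and Fos at 8.09 and 5.11 to 5.64. This list thus followed KAA2, and without that line its median was 0.035. LIF and STAT3 targets (10 of 14 higher, median 0.069) and ERK feedback genes and ETS targets (12 of 18 lower, median -0.056) lay near 0.

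Several endoderm genes were high in FB1 and KAA1. Srgn, a proteoglycan that parietal endoderm makes in quantity, was at 8.45 in FB1 and 8.85 in KAA1 and at 4.52 to 5.51 in the other 4 lines. Lama1, a laminin chain of Reichert's membrane, was at 6.95 and 7.32 against 4.43 to 4.94. Gata6, a master regulator of primitive endoderm, was at 6.34 and 7.01 against 4.81 to 5.73. The pattern was the same for the 3 genes. S100g, which encodes a calcium-binding protein, was called higher by the rank product with 8.02 in KAA1, 6.01 in KAA2 and 5.93 in KAA3, but FB1 at 7.33 was above the last 2 and FB2 and FB3 were at 3.77 and 4.62. The basement membrane list had median deviations of 0.26 in FB1 and 0.48 in KAA1 and of -0.33 to -0.12 in the others. Among the regulators of primitive endoderm KAA1 stood at 0.40, whereas FB1, at 0.079, was near KAA2 at 0.027. Its 14 members and the 16 regulators of primitive endoderm had median differences of 0.15 and 0.24, with 11 and 14 members higher. Without KAA1 these medians were -0.034 and 0.050, without FB1 0.39 and 0.34, and without FB1 and KAA2 0.56 and 0.37. That of the basement membrane list was 0.021 without FB2, 0.039 without FB3, 0.29 without KAA2 and 0.25 without KAA3, and that of the regulators 0.14 without FB3. In bulk samples, more endoderm cells and more RNA per cell cannot be told apart.

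**Figure D5:**
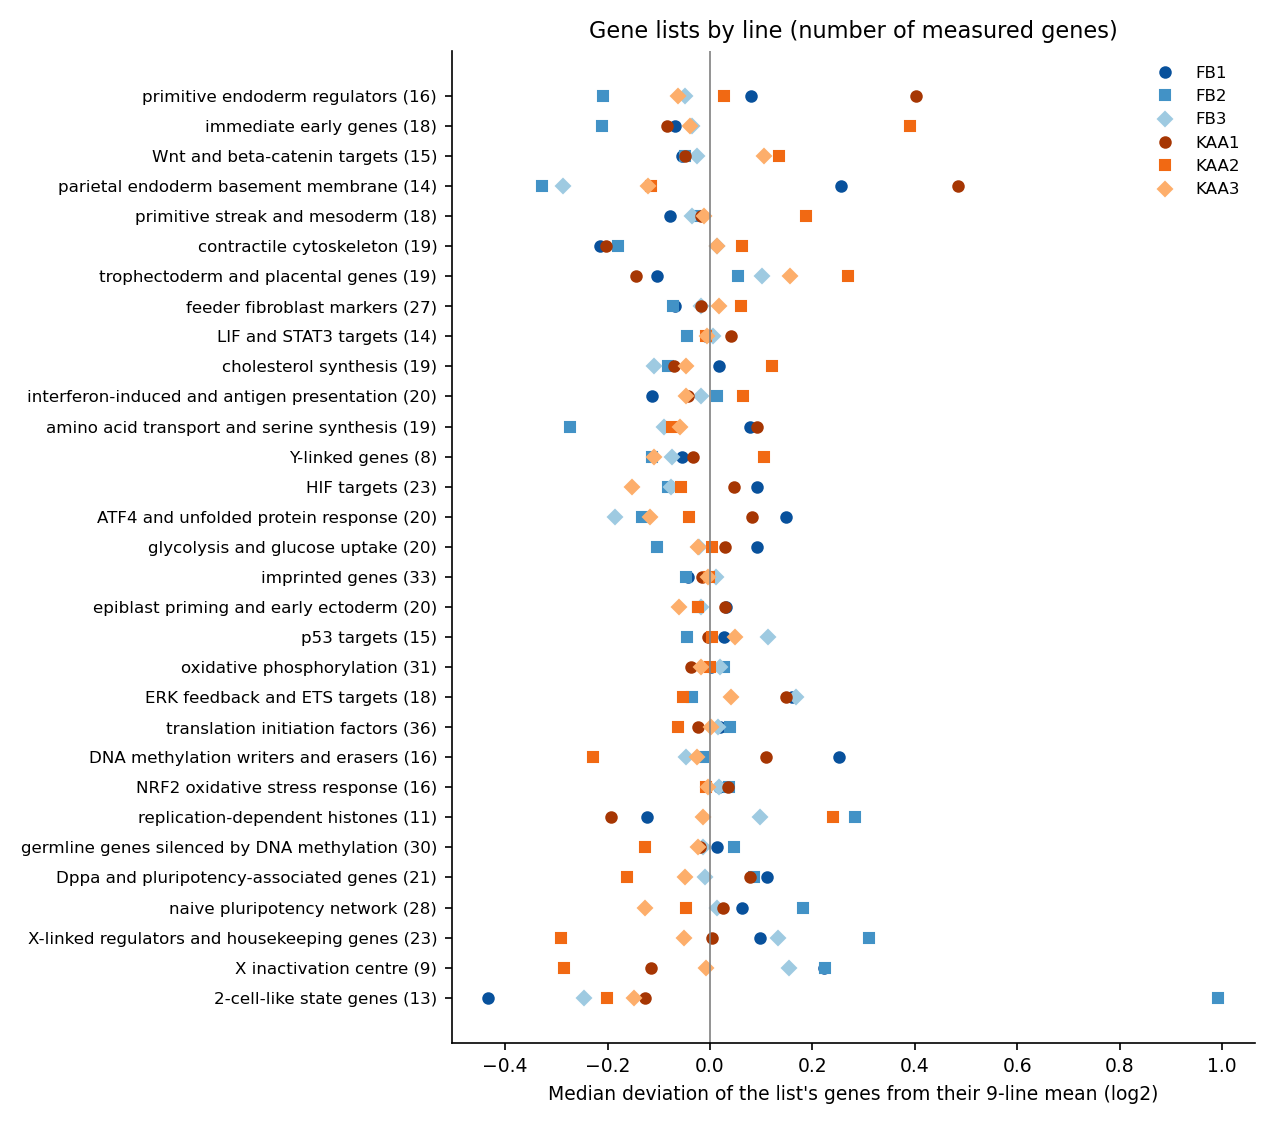
Median deviation of each gene list from the 9-line mean (log2, horizontal axis) in the 6 lines (points), with the number of measured genes in parentheses and lists ordered by the median difference of mESCKAA from mESCFB. FB2 stands at 0.99 for the 2-cell-like list, KAA2 at 0.39 for immediate early genes, and FB1 and KAA1 at 0.26 and 0.48 for the basement membrane list.

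Markers of other lineages stayed within a narrow range. Epiblast priming and early ectoderm genes had a median of -0.023 over 20. Only Zic2, a neural transcription factor, reached an unadjusted p under 0.05, at 6.20, 5.93 and 5.84 against 5.88, 5.17 and 5.34. Of all tested clusters, 2.08% were lower and 2.73% higher at that level. Primitive streak and mesoderm genes (15 of 18 higher, median 0.12) and trophectoderm and placental genes (12 of 19 higher, median 0.11) had 0 members at that level. KAA2 had the highest median in both, at 0.19 and 0.27, and without FB1 and KAA2 the list medians were -0.034 and -0.044. Feeder fibroblast markers were higher in 19 of 27, with a median of 0.081 and 0 members at an unadjusted p under 0.05. Acta2, smooth muscle actin, was at 7.87, 8.31 and 8.56 against 8.56, 8.88 and 8.67, and contractile genes as a list had 15 of 19 members higher and a median of 0.12. Thy1, another fibroblast marker, was lower, at 6.25 to 6.33 against 5.71 to 6.24. How any remaining feeder cells bear on these lists was not tested.

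Imprinted genes, whose parental marks are set in the germline and can be lost in embryo culture, lay on both sides of 0. Of 33 measured, 16 were higher and 17 lower, with a median of -0.021, and 4 had an unadjusted p under 0.05, 2 in each direction. Over all tested clusters 2.73% were higher and 2.08% lower at that level. Igf2, the fetal growth factor expressed from the paternal allele, was at 7.78, 7.09 and 7.73 in mESCFB and at 7.89, 8.44 and 8.26 in mESCKAA (difference 0.66, standard error 0.20). Zim1 was higher at low levels, at 2.36 to 2.62 against 2.68 to 2.98. Ndn, of the Prader-Willi region, was at 6.61, 7.08 and 6.78 against 6.34, 5.94 and 6.41 (difference -0.60, standard error 0.15), and Mcts2 at 9.43, 9.88 and 9.94 against 9.19, 9.57 and 9.32. The groups did not overlap for Igf2, Zim1 and Ndn, and they overlapped for Mcts2. Meg3 and Rian, noncoding RNAs of the Dlk1 domain, ranged from 5.22 in FB1 to 8.21 in FB2 and from 2.62 to 5.66, with mESCKAA at 6.44 to 6.75 and 3.33 to 4.01 in between. The writers and erasers of DNA methylation had 12 of 16 members lower and a median of -0.061. By line, the median deviation of this list was highest in FB1, at 0.25, and lowest in KAA2, at -0.23. Its median difference was 0.026 without FB1 and ranged from -0.17 to 0.11 over the alternatives, so its direction depended on the lines. Dnmt3l, the cofactor of de novo methylation, was at 9.43 to 9.68 in mESCFB, at 9.61 in KAA1, and at 8.65 and 8.89 in KAA2 and KAA3.

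Metabolic and stress lists lay close to 0. Medians were 0.0050 for HIF targets (13 of 23 higher), -0.012 for glycolysis and glucose uptake (9 of 20), -0.0013 for ATF4 targets and the unfolded protein response (9 of 20) and -0.024 for p53 targets (7 of 15), with 0 members at an unadjusted p under 0.05 in these 4 lists. Amino acid transport and serine synthesis had 12 of 19 members higher (median 0.045). Phgdh, the first enzyme of serine synthesis, was at 7.19, 6.88 and 7.13 against 7.31, 7.49 and 7.36, without overlap. Nqo1, a quinone reductase under NRF2, was at 7.09, 6.82 and 7.16 against 6.58, 6.39 and 6.84, and the NRF2 list had 10 of 16 members lower (median -0.064). These were the only members of their lists with an unadjusted p under 0.05, a level at which 2.73% of all tested clusters were higher and 2.08% lower. Cholesterol synthesis genes were higher in 14 of 19 (median 0.069), and Fdft1, squalene synthase, was at 8.85 to 8.88 against 9.08 to 9.29 in 1 of its 2 clusters. Oxidative phosphorylation genes were lower in 23 of 31 (median -0.036), to be read against -0.029 for all brighter clusters. After quantile normalization the median of this list was 0.0058. Cyc1, cytochrome c1, was at 9.81 to 9.95 against 9.56 to 9.77.

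The remaining lists added few genes. Translation initiation factors were lower in 32 of 36 with a median of -0.059, again to be read against -0.029 for all brighter clusters. Eif2b5, a subunit of the exchange factor eIF2B, was at 8.71, 9.05 and 8.86 against 8.45, 8.64 and 8.59. Interferon-induced and antigen presentation genes were higher in 15 of 20 (median 0.055). Both members with an unadjusted p under 0.05, Irf7 and Apobec3 by its brighter cluster, were lower. At that level 2.08% of all tested clusters were lower. Irf7, a regulator of interferon genes, lay at 2.56 to 2.87 in all 6 lines. B2m, the light chain of MHC class I, was at 7.47 in FB2 and at 8.48 to 8.93 in the other 5 lines. Of 11 replication-dependent histone genes 8 were lower (median -0.10). H1f2 was higher, at 6.99 to 7.31 against 7.31 to 7.69, and H2bc8 lower, at 7.18 to 7.60 against 6.70 to 7.11.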

How the data were processed

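Per the submitters' processing notes, Affymetrix Expression Console and R 3.1.0 were used, and the authors normalized the arrays by RMA in affylmGUI. The deposited values are log2 levels, background corrected and normalized between arrays, 1 per transcript cluster. RMA assumes like distributions in all lines, so a shift of most genes would be removed. The genome build behind the annotation is not given in the sources used here. The platform annotation assigned no gene to 12146 of 35556 clusters. Of the 23410 tested, 21789 carry 1 symbol. Chromosomes and gene order came from RefSeq (GRCm38.p6). With 1 array per line and 3 lines per group, the number of arrays limits the precision.

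Differences (mESCKAA minus mESCFB) came from limma 3.58.1 (R 4.3.3), with 1 mean per group over all 9 lines. Tests were two-sided, and p was adjusted by Benjamini-Hochberg over all tested clusters (threshold 0.05). The rank product, named in the methods of the study, used the 9 pairwise differences and 100 permutations within arrays. The study gives no threshold for it, and 0.05 was used. Exact permutation of 3 against 3 lines cannot go below p = 0.1 and was not used. Both tests were tested on simulated data. For lists, each gene was given by its single-symbol cluster with the highest mean, which 566 of 642 listed genes have. Lists and members were chosen with earlier results of these data known, and lists are described by counts and medians only.

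Named genes are the 15 single-symbol clusters per direction with the smallest p, the first 10 per direction by the rank product, the 10 per direction with the widest gap between groups, up to 4 members per list with the smallest p, markers, Xist, Y-linked genes, and 5 X-linked clusters per direction. Others were chosen after their values were seen. Alternatives were quantile normalization, median centring, all rows of the array, clusters at or above the median level, 1 cluster per symbol, the mean of a gene's clusters, other limma settings and thresholds, replicate numbers as a block, and leaving out lines. Tables and figures were made with Python 3.11.15, numpy 2.4.6, pandas 2.3.3, scipy 1.17.1 and matplotlib 3.10.9.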

Additional observations from a re-analysis of the deposited data

How the results depend on the processing

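The limma test gave 0 adjusted calls under each alternative tried. With the replicate number as a block it gave 780 higher and 663 lower clusters at an unadjusted p under 0.05 and 0 adjusted calls, and the rank product over the 3 same-numbered differences called 4 and 29. The deviations of same-numbered lines correlated at 0.328 (number 1), 0.147 (number 2) and 0.0809 (number 3). Lines with different numbers correlated at -0.242 (FB1 and KAA2) to 0.132 (FB3 and KAA2). FB1 and FB2 correlated best with the same-numbered line, and FB3 with KAA2. The main fit did not take the numbers as pairs, and whether they mark pairs or a batch was not tested. Unadjusted higher counts were 995 over all rows of the array and 143 when only clusters at or above the median level were fitted, and 473 to 835 when 1 line was left out. The lower count was 345 to 724 when 1 line was left out. Over all X-linked clusters the difference relative to autosomes (-0.071) was -0.11 to -0.038 when 1 line was left out. Over those at or above the median level it was -0.20, and -0.30 to -0.11 when 1 line was left out.

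The rank product was the least stable. Its higher count was 5 at a percentage of false positives under 0.1, 50 over all rows, 1 with 1 cluster per symbol and 1 to 19 when 1 line was left out. Its lower count was 52 under 0.1, 2 under 0.01, 40 after quantile normalization, 9 over all rows, 4 at or above the median level, 12 with 1 cluster per symbol, 35 without FB1 and KAA2, and 0 to 57 when 1 line was left out. Clusters without overlap numbered 1653 higher and 1343 lower over all rows, 301 higher and 724 lower at or above the median level, and 1623 lower after median centring. With fewer lines there are fewer values to overlap: the counts were 1772 to 2659 higher and 1602 to 2083 lower without 1 line, and 3821 and 3543 without FB1 and KAA2. Apart from these last settings, the cause was not tested.

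Of the named differences, these changed sign. When single lines were left out, Sox2 ranged from -0.12 to 0.016, Srgn from -0.62 to 1.80, Xist from -0.71 to 0.0055, Lama1 from -0.56 to 1.01 and Dab2, another endoderm gene, from -0.13 to 1.12. Sox2 was 0.016 without FB1 and 0.017 without FB1 and KAA2. Srgn was -0.16 without FB2 and -0.62 without KAA1. Xist was 0.0055 without FB2. Lama1 was -0.25 without FB3 and -0.56 without KAA1. Dab2 was -0.13 without KAA1. The other 938 recomputed values, counted per gene and setting, kept their direction. As no cluster passed the adjusted threshold in any setting, all stayed on the same side of it. Kept direction does not mean kept size: AF067061 was -1.28 with all lines and -0.049 without FB2, and Tcstv3 -0.97 and -0.082. The medians of 12 of the 31 lists kept their sign in all settings. With 3 arrays per group, the 95% interval reached 0.28 to either side for the median cluster and varied between clusters.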

Other observations

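Families expressed at low levels in mESC, taken up after their values were seen, lay near all clusters below the median level of the array, of which 65.1% were higher in mESCKAA, with a median difference of 0.047, and 4.21% were higher and 0.777% lower at an unadjusted p under 0.05. Of 1134 clusters of olfactory receptor genes, the receptors of the nose, 744 were higher, with a median of 0.047, and 46 were higher and 1 lower at that level. Of 361 microRNA genes 229 were higher, with a median of 0.042, and 21 were higher and 2 lower at that level. These counts are thus no property of the families. Small nucleolar RNA genes, which guide the modification of ribosomal RNA, are not such a family. Their median level was 5.12 to 5.51 in the 6 lines, above the array median of 4.67. Of 92, 47 were lower, with a median difference of -0.018, and the 4 with an unadjusted p under 0.05 were all lower. Among all brighter clusters 3.39% were lower at that level.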
